A study of Rattus norvegicus with 23 samples.

Results

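The small heat shock proteins and their co-chaperone Bag3 were followed in rat myocardium after infarction, with and without an implanted device. The 8 genes taken were Hspb1, Hspb2, Hspb3, Hspb6, Hspb7, Hspb8, Cryab and Bag3, found by symbol in each of the 3 deposited tables. All 8 were present, among 10723 genes with a value in every 12-week library and 11283 genes in each of the authors' 2 comparison tables. The animals were Sprague-Dawley rats given a myocardial infarction by ligation of a coronary artery, the left one (MI), or given that infarct and later operated on again for a device that the labels name TRD and do not describe further (MI+TRD). All groups thus carry the infarct, and neither a sham-operated nor an uninjured heart is among the 23 libraries. The 12-week groups had 6 libraries each. At 6 weeks there were 6 libraries for MI alone and 5 for MI+TRD. The tissue is labelled myocardium, without a statement of its distance from the scar or of age. Since the labels do not identify animals, p-values here reflect only how far these samples spread, which may be technical.

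Small heat shock proteins share an alpha-crystallin domain and assemble into oligomers. They hold unfolding proteins in a soluble state without using ATP, until ATP-driven chaperones such as the Hsp70 family refold them. In heart muscle they sit mainly on the sarcomere, the desmin filaments and the Z-disc. Bag3 ties Hspb8 to Hsp70, and with the ubiquitin ligase Stub1 it passes damaged filamin to autophagy, a route called chaperone-assisted selective autophagy. Mutations of CRYAB and BAG3 in people cause cardiomyopathies with protein aggregates or dilatation.

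The promoters of stress-inducible members are known to be read by heat shock factors, which bind alternating GAA and TTC units with a gap of 2 bases between neighbours. RefSeq promoter windows (build GRCr8) were at hand for 6 members, Hspb1, Hspb3, Hspb6, Hspb7, Hspb8 and Bag3, and the 250 bases before the start were searched on both strands. Units in a row of 2 (GAANNTTC or TTCNNGAA, each its own reverse complement) stood in 4 of the 6, against 13.5% of all 33469 windows of that length. No window of these 6 held 3 units in a row (alternating GAA and TTC with the same gaps, either order), which stood in 0.663% of all windows. The 4 with a match, Hspb1, Hspb6, Hspb8 and Bag3, all held the same 8 letters GAAGTTTC, which 1.22% of all windows hold on either strand; these exact letters, which overlap the first motif, were picked after the windows had been read. The stretches of 30 bases around it are shown to let them be compared, with the paired units in capitals.
Bag3: ggatgggaccaGAAGTTTCtagccggccag
Hspb8: agaagccaggaGAAGTTTCtaggcgcgtga
Hspb6: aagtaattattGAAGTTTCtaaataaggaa
Hspb1: cttcaactagaGAAGTTTCcagatgggggc

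These stretches lie at chr1:192533317-192533346 (+ strand, Bag3), chr12:45837274-45837303 (+ strand, Hspb8), chr1:94934212-94934241 (+ strand, Hspb6) and chr12:26432412-26432441 (− strand, Hspb1), and the match begins 132, 23, 149 and 129 bases before the start. The longest run that the windows of Bag3 and Hspb8 share is agaagtttctag, 12 bases, which stands in 0.0209% of all windows on either strand. This run was picked from these same 2 windows, which the share includes, and it contains GAAGTTTC. A run picked in this way is rare from the outset, so the share serves only to describe. Hspb1 held a second pair of units (GAACCTTC) 109 bases before its start and Hspb6 another (TTCTAGAA) 239 bases before. The window of Hspb3, the member with the largest difference between the groups below, held no pair of units and had the TATA box letters TATAAA on the gene's strand, which Hspb6 and Hspb7 also had and 8.06% of all windows hold. It is shown with no base in capitals (chr2:47029166-47029415, − strand), beside that of Bag3 (chr1:192533210-192533459, + strand), whose paired units are in capitals.
Hspb3: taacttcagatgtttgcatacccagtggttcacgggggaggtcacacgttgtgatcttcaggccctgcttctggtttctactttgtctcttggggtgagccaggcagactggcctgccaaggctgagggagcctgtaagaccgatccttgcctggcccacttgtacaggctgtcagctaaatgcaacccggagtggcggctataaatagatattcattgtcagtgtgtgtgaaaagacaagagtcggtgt
Bag3: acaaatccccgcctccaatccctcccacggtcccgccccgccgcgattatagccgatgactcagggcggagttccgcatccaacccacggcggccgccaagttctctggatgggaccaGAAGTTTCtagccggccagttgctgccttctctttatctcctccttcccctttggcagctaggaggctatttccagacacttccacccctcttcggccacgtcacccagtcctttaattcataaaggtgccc

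The values at 12 weeks are the authors' normalized counts, which are not divided by gene length, so each gene is compared only with itself. Reads recovered from them numbered 7197118 to 10304156 per library. Every member was well above the filter on low values, with between 228 (Hspb3) and 41978 (Cryab) reads in a library. Fold changes are differences of log2(value + 0.208) between MI+TRD and MI from limma, fitted over 10655 genes with Benjamini-Hochberg adjustment. The median gene lay at −0.14 on this scale, and a relative fold change is the distance from it. MI+TRD replicates 1, 4 and 5 stood apart from the other libraries. In genes spanning up to 2 kb their median deviation was −0.53, −0.36 and −0.37 (log2, relative to all genes), against −0.02 to 0.32 in the other 9 libraries. These 3 libraries also had 114 to 178 genes at 0 reads, against 13 to 75. Member results are therefore given with and without them.

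All 8 members had lower mean normalized counts in MI+TRD than in MI at 12 weeks, and none passed the test over all genes. Fold changes below 0 were found for 67.8% of all genes. For each of the 8, all 6 MI+TRD libraries lay below the MI mean, which held for 22.3% of all genes. That count followed the deposited scaling. As log2 values minus the library median, Hspb8 and Bag3 lay above the MI mean in MI+TRD replicates 2, 3 and 4 (0.08 to 0.15). Hspb6 did in replicates 2, 3 and 5, Hspb1 and Hspb3 in replicate 2 and Cryab in replicate 3. Hspb7 reached the MI mean in replicate 3 (0.00), and Hspb2 lay below it in all 6. On the deposited values the groups overlapped in all 8, while 1.59% of all genes were lower without overlap. At an unadjusted limma p below 0.05, 4 of the 8 were lower (Hspb1, Hspb2, Hspb3 and Hspb7) and 0 higher, against 19.1% of all genes lower and 2.80% higher. With edgeR 3 were lower at that threshold, against 6.98% of all genes. Without MI+TRD replicates 1, 4 and 5 only Hspb2 was lower at that threshold, against 9.69% of all genes. The members' median log2 fold change was −0.38, or −0.24 relative to the median gene, and −0.27 without the 3 libraries, or −0.12 relative to the median gene of that fit. The relative median was −0.10 with library weights, −0.07 with the span trend removed and 0.01 without MI+TRD replicates 1, 4, 5 and 6. In that last fit few MI+TRD libraries were left, and 4 of the 8 lay below the median gene. With median ratio scaling or equal totals the relative median was −0.23, with quantile normalization −0.18, and with edgeR or DESeq2 −0.26. At an adjusted p below 0.05 limma called 0 of 10655 genes (2033 lower and 298 higher unadjusted), edgeR 0 and DESeq2 18 (0.169%), none of them a member. With column totals made equal, 5 of the 8 were below 0, but the median gene lay at 0.08 there and all 8 were below it. With quantile normalization 6 were below 0, and 6 below the median gene at −0.01.

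**Figure D1:**
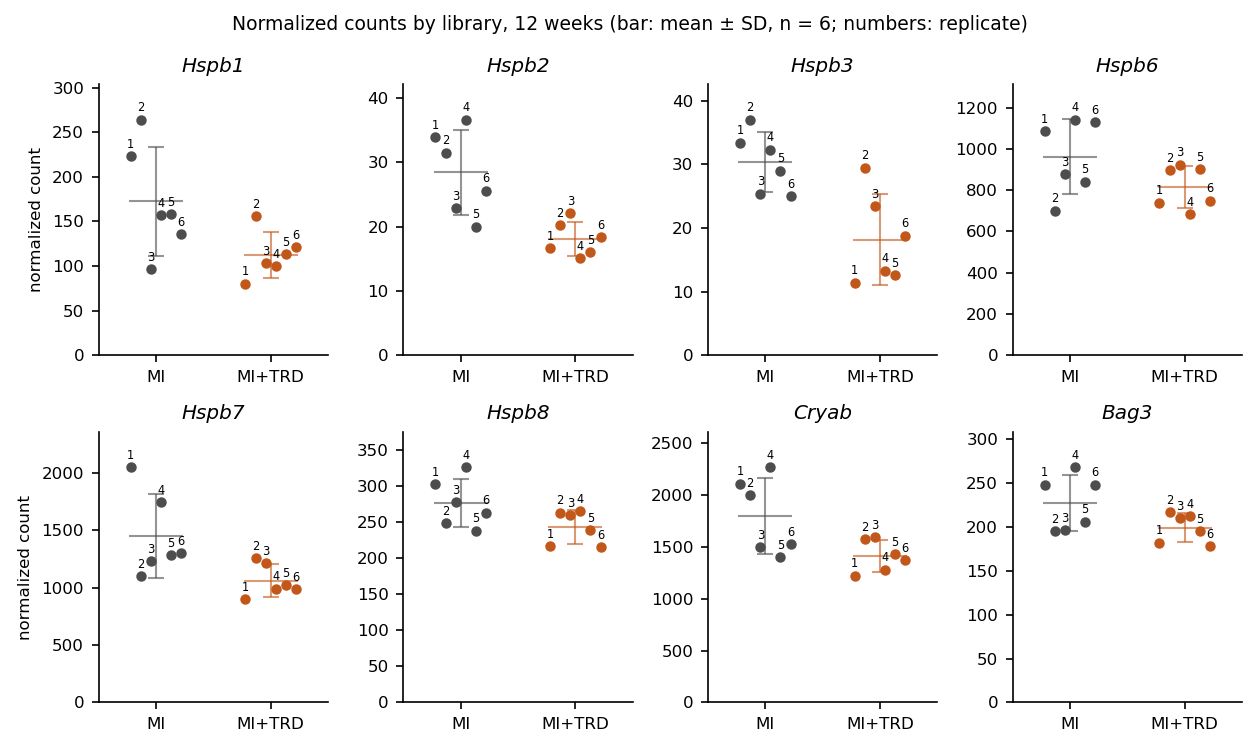
Normalized count (linear axis from 0) of each member in every 12-week library, with the replicate number beside each point and bars for the mean ± SD of 6 libraries per group. On this deposited scale the MI+TRD libraries sit below the MI mean in every panel, the groups overlap in every panel, and Hspb3 is lowest in MI+TRD replicates 1, 4 and 5.

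Hspb3, a small member found mainly in striated and smooth muscle (chromosome 2, 45517788 to 45518503, − strand, rn6), had the largest difference. Its normalized count ran from 25.0 to 37.0 in the MI libraries (median 30.6) and from 11.4 to 29.5 in those of MI+TRD (median 16.1). All MI+TRD libraries but replicate 2 lay below the lowest MI library, and replicates 1, 4 and 5 were lowest at 11.4, 13.3 and 12.6. Its coefficient of variation was 15.7% in MI and 39.4% in MI+TRD. The log2 fold change was −0.80 (SE 0.22), or −0.66 relative to the median gene (limma adjusted p = 0.133, unadjusted p = 0.00190). It was −0.35 (SE 0.18) without MI+TRD replicates 1, 4 and 5 (limma unadjusted p = 0.0680).

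Hspb2, which binds the myotonic dystrophy kinase and forms a complex with Hspb3 (chromosome 8, 55176847 to 55177819, − strand), measured between 20 and 36.6 in MI, with a median of 28.6. With the device it measured between 15.1 and 22.1 (median 17.5), and 4 of these 6 libraries lay below the lowest of MI. The log2 fold change was −0.63 (SE 0.16), the smallest p of the members (limma adjusted p = 0.133, unadjusted p = 0.00146), and −0.46 (SE 0.19) without the 3 libraries (unadjusted p = 0.0348).

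Hspb7, the cardiovascular small heat shock protein, which acts on the thin filament and filamin (chromosome 5, 159968077 to 159971564, + strand), had a median of 1291 in MI (1103 to 2052) and of 1008 in MI+TRD (899 to 1257). MI replicates 1 and 4, at 2052 and 1747, stood above all other libraries, and 4 MI+TRD libraries lay below the lowest MI library. The log2 fold change was −0.43 (SE 0.18; limma adjusted p = 0.184), and −0.31 (SE 0.22) without MI+TRD replicates 1, 4 and 5.

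Hspb1, a phosphorylation-controlled guardian of actin filaments (chromosome 12, 23839390 to 23841052, − strand), varied most within MI, with a coefficient of variation of 35.2%. Its median was 157 in MI (96.4 to 264) and 108 in MI+TRD (80.1 to 156). MI replicates 1 and 2 were high at 223 and 264, MI replicate 3 lay among the MI+TRD libraries, and only MI+TRD replicate 1 was below it. The log2 fold change was −0.57 (SE 0.22; limma adjusted p = 0.159), −0.39 (SE 0.27) without the 3 libraries and −0.28 with atrial markers as a covariate.

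Cryab, the alpha-B-crystallin that shields desmin and titin (chromosome 8, 55178543 to 55182547, + strand), had a median of 1761 in MI (1403 to 2269) and of 1401 in MI+TRD (1221 to 1595). MI replicates 1, 2 and 4 were high at 2108, 1995 and 2269, while replicates 3, 5 and 6 lay within the range of MI+TRD. The log2 fold change was −0.33 (SE 0.17), or −0.19 relative to the median gene (limma adjusted p = 0.270). It was −0.23 (SE 0.21) without MI+TRD replicates 1, 4 and 5.

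Hspb6, a target of protein kinase A that also acts on smooth muscle tone (chromosome 1, 89008117 to 89010257, + strand), had a median of 982 in MI (699.9 to 1141) and of 824 in MI+TRD (685 to 923). MI replicates 1, 4 and 6 were above every MI+TRD library and MI replicate 2 was below all but 1 of them. The log2 fold change was −0.23 (SE 0.16), or −0.08 relative to the median gene (limma adjusted p = 0.442). It was −0.15 (SE 0.19) without the 3 libraries and 0.19 once the trend over gene span had been removed.

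Hspb8 and Bag3, the pair that forms 1 complex, differed least. Hspb8 (chromosome 12, 45905371 to 45920015, + strand) had a median of 270.1 in MI (238 to 326) and of 249 in MI+TRD (215 to 265). Bag3 (chromosome 1, 199941258 to 199965192, + strand) had a median of 227 in MI (195 to 268) and of 202 in MI+TRD (178 to 217). In both genes MI replicate 4 was highest and MI+TRD replicates 1 and 6 were the lowest pair. Both had a log2 fold change of −0.18 (SE 0.12), or −0.04 relative to the median gene, with limma adjusted p-values of 0.415 for Hspb8 and 0.411 for Bag3. Without MI+TRD replicates 1, 4 and 5 both had −0.16 (SE 0.15). With equal column totals the values were 0.06 and 0.05, beside a median gene at 0.08, so their direction against 0 followed the scaling.

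The order of the members by fold change largely followed their genomic span. Hspb6 (2.14 kb) was the exception, with a smaller difference than the longer Hspb7 (3.49 kb) and Cryab (4 kb). The 3 shortest genes, Hspb3 (0.715 kb), Hspb2 (0.972 kb) and Hspb1 (1.66 kb), had the largest differences, and the longest, Hspb8 (14.6 kb) and Bag3 (23.9 kb), the smallest. The median log2 fold change of all genes followed span in the same direction: it was −0.54 over 59 genes of up to 1 kb, −0.43 over 294 genes of 1 to 2 kb, −0.38 over 373 genes of 2 to 3 kb and −0.35 over 741 genes of 3 to 5 kb. It was −0.19 over 2143 genes of 10 to 20 kb and −0.09 over 2789 genes of 20 to 50 kb. Hspb3 at −0.80 lay below its class and Hspb6 at −0.23 above its own. In the class of up to 1 kb, 49.2% of genes passed the unadjusted limma threshold of 0.05 on the lower side. Without MI+TRD replicates 1, 4 and 5 the class medians lay between −0.19 and −0.12. There Hspb2, Hspb1 and Hspb3 had −0.46, −0.39 and −0.35, beside class medians of −0.18 (up to 1 kb) and −0.19 (1 to 2 kb). Hspb7 and Cryab had −0.31 and −0.23 beside −0.17 (3 to 5 kb). Hspb6, Hspb8 and Bag3 had −0.15, −0.16 and −0.16 beside −0.15, −0.16 and −0.12. Hspb3 had −0.17 there with edgeR, where the median of all genes was 0.00 and not that of limma. With limma Hspb3 had −0.19 once MI+TRD replicate 6 was left out too, which was the median of all genes in that fit. With the trend over span removed from each library, Hspb3 had −0.30, Hspb2 −0.15 and Hspb1 −0.14, and Hspb3 was the 1 member past an unadjusted limma threshold of 0.05 on the lower side, against 6.17% of all genes. The part of span, RNA quality or these libraries in the result was not tested.

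**Figure D2:**
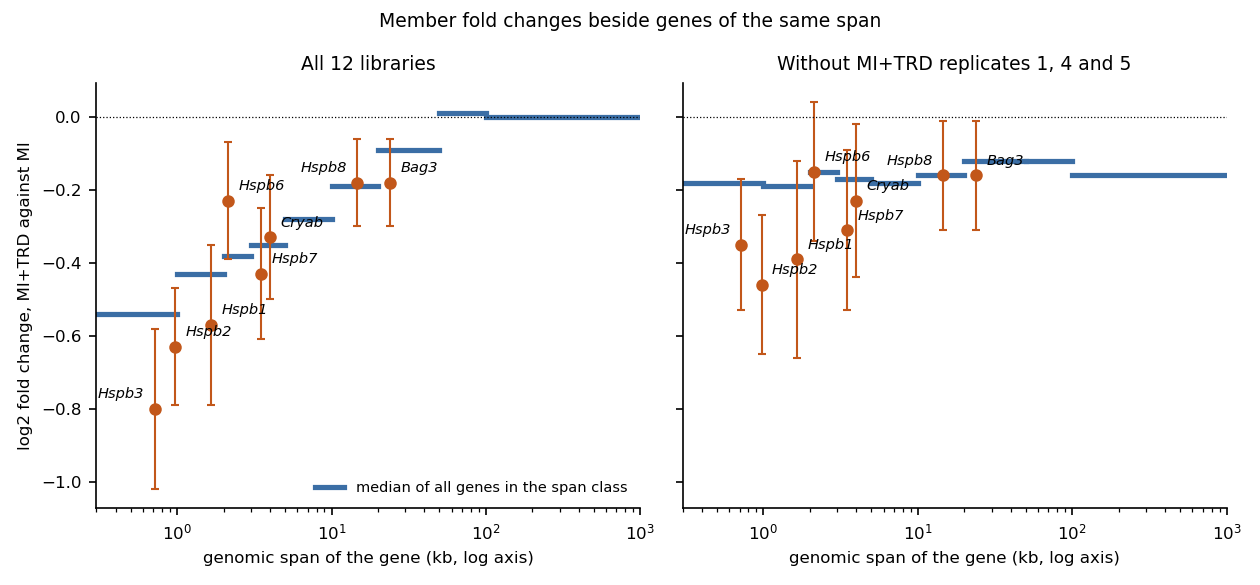
Log2 fold change of each member (point, with SE) against its genomic span in kb on a log axis, with blue lines for the median of all genes in each span class, for all 12 libraries (left) and without MI+TRD replicates 1, 4 and 5 (right). On the left the members other than Hspb6 (−0.23) step up with the class medians from −0.80 for Hspb3 to −0.18 for Bag3. On the right the class medians are level near −0.15. Hspb1, Hspb2 and Hspb3 lie farthest below them, and Hspb7, Cryab and Bag3 lie below them by less.

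Hspb2 and Cryab lie head to head on chromosome 8, on opposite strands with 724 bases between their deposited ends, and are known as neighbours that share this upstream region. A ratio of both within a library does not depend on scaling. The log2 ratio of Cryab to Hspb2 ran from 5.88 to 6.12 in the MI libraries and was 6.18, 6.26, 6.16, 6.39, 6.46 and 6.21 in MI+TRD replicates 1 to 6. The groups did not overlap, and MI+TRD replicates 4 and 5 were highest. The MI mean of 5.98 ± 0.08 stood against 6.28 ± 0.12 for MI+TRD (SD over 6 libraries each), a difference of 0.30 with a two-sided exact permutation p of 0.00216, the smallest that 6 against 6 libraries allow, and an adjusted p of 0.00433 over the 2 ratios tested. It was 0.23 without MI+TRD replicates 1, 4 and 5 (exact permutation p = 0.0119, again the smallest possible; adjusted p = 0.0238). With the trend over gene span removed from each library it was 0.17, which did not pass the threshold after adjustment (exact permutation p = 0.0476, adjusted p = 0.0952). The 2 genes differ in span, at 0.972 and 4 kb, and the medians of their span classes were −0.54 and −0.35 over all libraries but −0.18 and −0.17 without those 3. In the RefSeq annotation of build GRCr8 the spans of the 2 genes overlap. Whether counting used strand is not given in the sources used here, so reads from such an overlap could not be told apart.

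The log2 ratio of Bag3 to Hspb8 showed no such difference. Its mean was −0.28 ± 0.14 for MI against −0.29 ± 0.03 for MI+TRD (SD over 6 libraries each). The difference was 0.00, with a two-sided exact permutation p of 0.950 and an adjusted p of 0.950. MI ranged from −0.50 (replicate 3) to −0.08 (replicate 6) and MI+TRD only from −0.32 to −0.25; the difference in spread was not tested. Across the 12 libraries, as log2 values minus the library median with each group's mean removed, Bag3 and Hspb8 had a Pearson r of 0.867 (permutation p = 0.00119, adjusted p = 0.0111) and a Spearman rho of 0.783 (permutation p = 0.00525, adjusted p = 0.0294). The r was 0.729 within MI, 0.995 within MI+TRD, and 0.673 without the 2 libraries farthest from the median. Cryab and Hspb2 had an r of 0.927 (permutation p = 9.00e-05, adjusted p = 0.00252) and a rho of 0.874 (permutation p = 9.10e-04, adjusted p = 0.0255), with 0.974 within MI, 0.853 within MI+TRD and 0.879 without the 2 farthest libraries. These correlations were added after the data had been seen, and their p-values are adjusted over all 28 pairs of members, whose r ran from −0.165 (Hspb1 with Hspb6) to 0.927, with 7 pairs past 0.05. All pairs share the same libraries, with their RNA quality and tissue make-up.

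**Figure D3:**
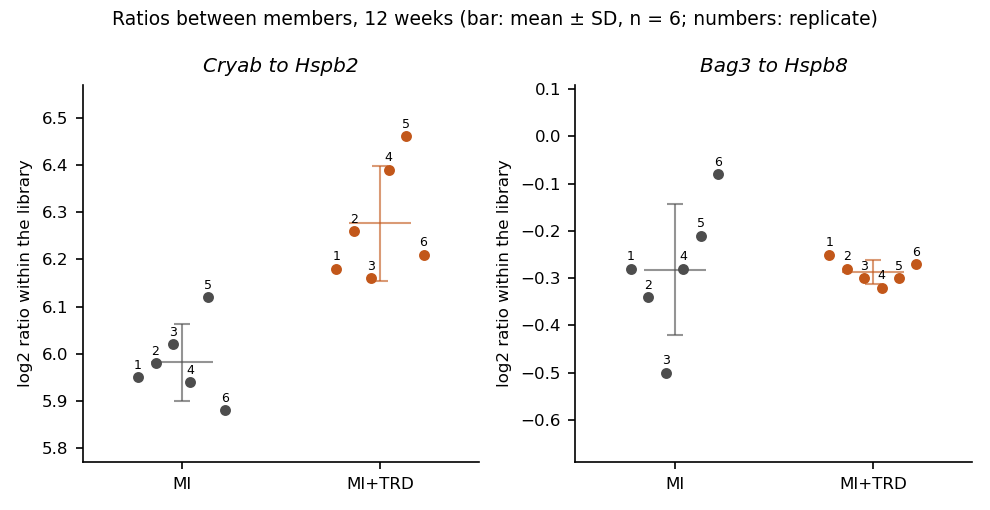
Log2 ratio of Cryab to Hspb2 (left) and of Bag3 to Hspb8 (right) in each 12-week library, with replicate numbers and bars for the mean ± SD of 6 libraries per group; both vertical axes span the same log2 range. The Cryab to Hspb2 ratio is at most 6.12 in MI and at least 6.16 in MI+TRD, while the Bag3 to Hspb8 ratio of all MI+TRD libraries falls inside the range of MI.

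The members are genes of cardiac and other muscle, and in bulk tissue fewer cells of a type and less RNA per cell cannot be told apart. Of 13 cardiomyocyte markers, all measured and none at 0 reads in any library, 6 were lower and 0 higher at an unadjusted limma p below 0.05, beside 19.1% and 2.80% of all genes. Without MI+TRD replicates 1, 4 and 5, 2 of the 13 were lower, beside 9.69% of all genes. The markers' median log2 fold change was −0.31 over all libraries and −0.35 without those 3, against −0.14 and −0.15 for all genes. The markers' summed normalized count was 42615 to 68047 in MI and 35344 to 56939 in MI+TRD. Relative to the mean log2 level of these markers, Bag3 and Hspb8 each differed by 0.09 between the groups, Hspb6 by 0.04, Cryab by −0.06 and Hspb7 by −0.16, against −0.30 for Hspb1, −0.36 for Hspb2 and −0.53 for Hspb3. Only Hspb2 lay below the MI mean of this measure in all 6 MI+TRD libraries. The measure was taken over all libraries only. Without MI+TRD replicates 1, 4 and 5, Hspb1, Hspb2 and Hspb3 had log2 fold changes of −0.39, −0.46 and −0.35. The median of the cardiomyocyte markers there was −0.35, and the other members ran from −0.31 (Hspb7) to −0.15 (Hspb6). These values are a description without a test.

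Markers of other cells that the samples could hold varied with the groups too. The 7 smooth muscle markers summed to 239 to 339.9 in MI and 194 to 354 in 5 of the MI+TRD libraries with replicate 5 above them, with 0 past an unadjusted p of 0.05 in either direction. Without MI+TRD replicates 1, 4 and 5, 4 of them and 6 of 7 endothelial markers were lower, beside 9.69% of all genes. Of 9 markers of skeletal muscle, where Hspb2 and Hspb3 are also found, Tnnt3 and Myh2 were measured; they summed to 1.40 to 4.02 in MI and 0.580 to 2.25 in MI+TRD, with Tnnt3 lower and at 0 reads in some libraries. The 6 atrial markers measured summed to 226 to 12008 in MI and 146 to 3346 in MI+TRD, none past that threshold and Sln at 0 reads in some libraries. The 7 macrophage markers summed to 31.9 to 83.0 in MI and 25.5 to 367 in MI+TRD, and the 7 fibroblast markers to 817 to 1163 and 718 to 3093, both highest in MI+TRD replicate 6. The 7 endothelial markers summed to 487 to 719 and 359 to 762, with 2 lower, beside 19.1% of all genes. The 6 epicardial markers measured summed to 9.44 to 24.5 and 15.6 to 87.8, with 5 higher, beside 2.80% of all genes. Without MI+TRD replicates 1, 4 and 5, 0 passed, but their median log2 fold change was 2.35 against 1.56 over all libraries. Msln, Upk1b and Krt19 were at 0 reads in some libraries. The 6 erythroid markers summed to 199.9 to 874 and 295 to 1054, with none past the threshold. All 5 heart mitochondrial genes measured were lower at that threshold, against 19.1% of all genes. Without MI+TRD replicates 1, 4 and 5, 1 of the 5 was lower, beside 9.69% of all genes. Their median was −0.70 over all libraries and −0.37 without those 3. The 3 ribosomal RNA entries summed to 5248 to 57311 in MI and 6756 to 16932 in MI+TRD. The 8 immediate early genes summed to 310.0 to 1069.9 and 335 to 978, with none past the threshold. The part of these in the members' values was not tested.

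The other genes of the chaperone network are given from lists that were set with earlier results known. Among 23 heat shock factors and chaperones, all measured, 4 were lower and 1 higher at an unadjusted limma p below 0.05, with a median log2 fold change of −0.22. The shares for all genes were 19.1% lower and 2.80% higher. The count of lower genes was 2 without MI+TRD replicates 1, 4 and 5, beside 9.69% of all genes. It was 1 with equal totals, beside 412 of all 10655 genes, and 1 with the span trend removed, beside 6.17%. Chordc1, a co-chaperone of Hsp90 that the rule for names did not pick and that was named after its value was seen, was the higher one with a log2 fold change of 0.61 (SE 0.27). The lower ones were Hspe1, the mitochondrial co-chaperonin, at 55.3 ± 14.3 (MI) and 35.8 ± 5.59 (MI+TRD), SD over 6 libraries each as for the pairs of values that follow, the Hsp70-Hsp90 adaptor Stip1 (62.7 ± 9.40 and 47.8 ± 3.31), the Hsp90 activator Ahsa1 (50.5 ± 8.73 and 35.5 ± 7.85) and the Hsp70 gene Hspa1l (12.7 ± 1.85 and 9.49 ± 1.92). Hsf1, the factor that drives the heat shock response, measured 15.2 ± 2.27 and 12.9 ± 0.504 (limma adjusted p = 0.305). Hspa8, the constitutive Hsp70 that Bag3 works with, measured 1189 ± 202 and 1193 ± 270.1, a log2 fold change of −0.01 (SE 0.18). The inducible genes Hspa1a, Hspa1b and Dnajb1 had −0.48 (SE 0.29), −0.54 (SE 0.27) and −0.30 (SE 0.22), with limma adjusted p-values of 0.363, 0.252 and 0.444. Hspa1a and Hspa1b are near-identical copies whose reads could be divided between them in an unknown way.

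Of 15 partners in chaperone-assisted selective autophagy, 2 were lower and 0 higher at the same threshold, beside 19.1% of all genes lower. Their median was −0.04, and −0.24 without MI+TRD replicates 1, 4 and 5. Stub1, the ubiquitin ligase of the complex, measured 87.8 ± 14.7 and 61.9 ± 9.32, a log2 fold change of −0.50 (SE 0.14; limma adjusted p = 0.133). Map1lc3a, a coat protein of autophagosomes, measured 281 ± 55.9 and 161 ± 71.8, and its log2 fold change of −0.92 was −0.32 without MI+TRD replicates 1, 4 and 5. Both genes are short, at 2.28 and 1.65 kb, and with the trend over span removed they had −0.09 and −0.48. The cargo receptor Sqstm1 had −0.24 (SE 0.14), the co-chaperone Dnajb6 −0.13 (SE 0.11) and the Z-disc partner Synpo2 0.00 (SE 0.25), none past an unadjusted p of 0.05. Synpo2 had −0.53 without those 3 libraries.

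The clients that these chaperones protect are mostly filament and Z-disc proteins. Of 15 listed, 14 were measured, with a median of −0.01 against −0.14 for all genes. Without MI+TRD replicates 1, 4 and 5 their median was −0.28 against −0.15, so their place relative to the median gene followed these libraries. In the fit over all libraries 1 of the 14 was lower, beside 19.1% of all genes: Ldb3, a Z-disc adaptor, at 809.7 ± 107 and 645 ± 83.2. Des, which encodes desmin, measured 1283 ± 215 and 1270.2 ± 346, and Flnc, the muscle filamin that Bag3 clears, 487 ± 185 and 371 ± 119, a log2 fold change of −0.37 (SE 0.26). Of 11 listed kinases that act on small heat shock proteins 9 were measured and 1, the p38-gamma kinase Mapk12, was lower at the same threshold, beside 19.1% of all genes. Mapk12 measured 13.7 ± 2.02 and 8.35 ± 0.840, a log2 fold change of −0.69 (SE 0.13; limma adjusted p = 0.133). It was −0.75 without MI+TRD replicates 1, 4 and 5 and −0.44 with the span trend removed. DESeq2 called 1 of the 9 kinases at an adjusted p below 0.05, beside 0.169% of all genes. Prkaca, the catalytic subunit of protein kinase A that phosphorylates Hspb6, measured 136 ± 21.0 and 109 ± 21.8 (limma adjusted p = 0.230), and Mapkapk2, the main kinase of Hspb1, 284 ± 46.9 and 265 ± 24.9. Of 9 other genes listed by symbol with the small heat shock and BAG families 6 were measured. Of these 1, Hspb11, was lower, at 2.41 ± 0.502 and 1.58 ± 0.517, beside 19.1% of all genes. The count was 0 without MI+TRD replicates 1, 4 and 5 and with the span trend removed, beside 9.69% and 6.17% of all genes. Bag1 had −0.22 (SE 0.12), Bag2 −0.27 (SE 0.17) and Bag5 −0.13 (SE 0.12).

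The patterns most like Cryab and Bag3 over the 12 libraries, again as log2 values minus the library median with group means removed, belonged to different genes once the 8 members were left out of the ranking. For Cryab, whose r with the member Hspb2 was 0.927, they were Psma7 (r = 0.939), Gpx4 (0.937), Ndufb9 (0.924), Mrps15 (0.918) and Atp5o (0.913). For Bag3 they were Rnf115 (r = 0.964), Natd1 (0.955), Afg1l (0.922), Spsb3 (0.912) and Timm44 (0.892). These are the highest values among the other genes kept by the filter and serve only to describe.

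The authors' deposited tables give the same comparison at 6 and 12 weeks, each with its own libraries, so no sample is shared between them. The time is taken from the treatment label of each sample; the protocol text, the same for all 23, speaks of follow-up to 12 weeks only, so the meaning of the 6-week label rests on that label alone. In the authors' deposited table for 12 weeks, all 8 members had a ratio of MI+TRD to MI below 1, as did 67.3% of its genes, and Hspb3 alone was lower at a step-up false discovery rate below 0.05, against 2.90% of all genes (2.94% in either direction). At an unadjusted p below 0.05 in the authors' deposited table, Hspb1, Hspb2 and Hspb3 were lower, 3 of the 8, against 22.0% of all genes. Its ratio there was 0.585, from least-squares means of 31.6 in MI and 18.5 in MI+TRD (false discovery rate 0.0492). The authors' deposited table gave Hspb1 0.638 (0.0649) and Hspb2 0.622 (0.0674), with the false discovery rate in brackets. For Hspb7, Cryab, Hspb8, Bag3 and Hspb6 the ratios of the authors' deposited table were 0.716, 0.768, 0.864, 0.860 and 0.830, with false discovery rates from 0.312 to 0.611. On the values per library Hspb3 did not pass 0.05 with limma, with edgeR (adjusted p = 0.304) or with DESeq2 (adjusted p = 0.176).

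At 6 weeks 0 of 11283 genes of the authors' deposited table had a step-up false discovery rate below 0.05, and at an unadjusted p below 0.05 the lower share of its genes was 4.09%, with no member among them. The ratios in the authors' deposited table were 0.802 for Hspb3, 0.845 for Cryab, 0.849 for Hspb1 and 0.860 for Hspb6, 0.929 for Hspb2, 0.963 for Hspb8, 0.993 for Hspb7 and 1.02 for Bag3. Thus 7 of the 8 were below 1, as were 57.0% of all genes. The median log2 ratio of the members in the authors' deposited tables was −0.16 at 6 weeks and −0.43 at 12 weeks, beside −0.04 and −0.16 for all genes. Hspb3 had the lowest ratio of the members at both times. At 6 weeks the log2 ratio of Cryab (−0.24) lay below that of Hspb2 (−0.11) in the authors' deposited table, the opposite order to 12 weeks (−0.38 and −0.69). Whether the times differ was not tested: 6-week values of single libraries were not used here.

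**Figure D4:**
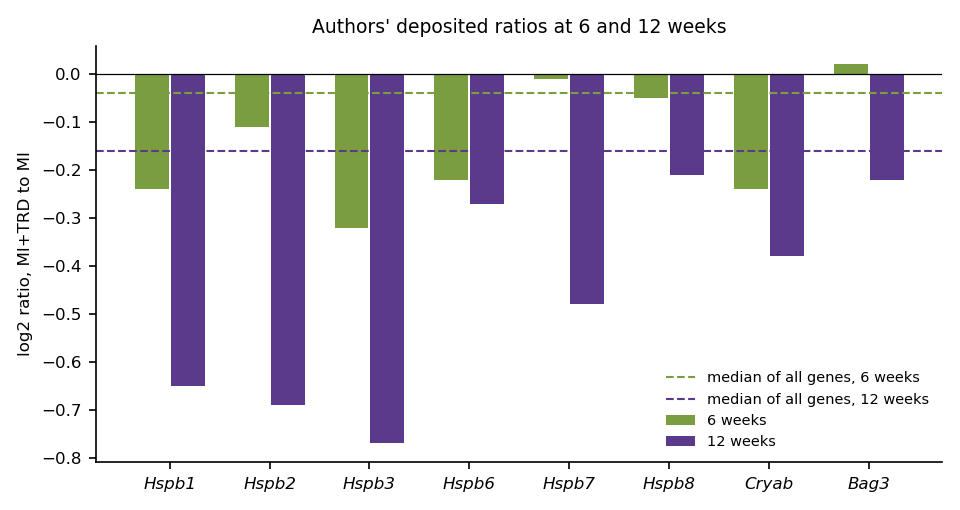
Log2 ratio of MI+TRD to MI for each member in the authors' deposited tables at 6 weeks (green bars) and 12 weeks (purple bars), with dashed lines for the median of all genes of each table. At 12 weeks all bars are below the median line of −0.16, with Hspb3 lowest at −0.77, and at 6 weeks the bars run from −0.32 (Hspb3) to 0.02 (Bag3).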

How the data were processed

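Per the labels, polyadenylated RNA of rat myocardium was sequenced with Illumina technology. Partek and build rn6 appear in the submitters' processing notes. The aligner, counting rules and scaling, as well as the model of the comparisons, were not given in the sources used here. The authors deposited a signal for each gene and 12-week library, which they call normalized counts; no header or label describes the scaling. Per library, between 97.2% and 98.6% of values of up to 20 steps were within 0.1 of a whole multiple of the smallest value. Reads were therefore recovered as that multiple minus 1. The authors also deposited, for 6 and 12 weeks, a p-value, a step-up false discovery rate, a ratio and a signed fold change with least-squares means, per the file headers.

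The test at 12 weeks was limma 3.58.1 with a trended prior on log2(value + 0.208), two-sided, without covariates, over 10655 genes whose share of the column total averaged at least that of 0.415 units. A threshold of 0.05 applied to Benjamini-Hochberg adjusted p-values. Alternatives used edgeR 4.0.16 and DESeq2 1.42.0 on recovered reads, other scalings, filters, pseudocounts and sets of libraries. Ratios were tested by exact permutation of the 12 libraries, and correlations by 100000 permutations within groups. Libraries of the same group differed by more than sampling noise, with a chi-square per degree of freedom of 14.72 or more. On simulated reads of the 12-week comparison over 10655 genes, limma recovered 14% of 50 genes changed 1.5-fold and 62% of 50 changed 2-fold.

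The members, lists and tests were chosen with earlier results of these data known. All members are named, with up to 4 genes per list by smallest limma p and 11 chaperone genes in any case; the marker lists are given by their sums and counts. The genes most like Cryab and Bag3 were taken by Pearson's r. Promoter sequences are RefSeq's, build GRCr8, while coordinates of genes are the deposited rn6 ones.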

Additional observations from a re-analysis of the deposited data

How the results depend on the processing

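Of the 29 alternatives to the fit over all genes, none called a member at an adjusted p below 0.05. The number of members lower at an unadjusted p below 0.05, 4 as reported, was 2 with median ratio scaling, quantile normalization, equal totals (with or without ribosomal RNA) and library weights, and 1 with the span trend removed or without MI+TRD replicates 1, 4 and 5. Of all 10655 genes, 878 were lower with median ratio scaling, 1042 with quantile normalization and 412 with equal totals. There were 704 with equal totals without ribosomal RNA and 1460 with library weights. With the span trend removed 657 were lower, and 1032 without MI+TRD replicates 1, 4 and 5. Settings added after seeing the data, edgeR without those 3 libraries and limma without MI+TRD replicates 1, 4, 5 and 6, gave 0 members, beside 366 and 974 of all genes. Leaving out 1 library in turn gave 2 (MI replicate 1 or MI+TRD replicate 1) to 5 members, beside 1430 to 2332 of all genes. The members' median log2 fold change, −0.38, was −0.22 with median ratios, −0.18 with quantile normalization, −0.14 with equal totals, −0.19 without ribosomal RNA in the totals, −0.23 with DESeq2 and −0.05 with the span trend removed; it was −0.11 with edgeR without MI+TRD replicates 1, 4 and 5 and −0.18 without MI+TRD replicates 1, 4, 5 and 6, and −0.43 to −0.30 with 1 library left out. Directions changed for Hspb6 (0.01 with equal totals, 0.19 with the span trend removed), Hspb8 (0.06 with quantile normalization and with equal totals, 0.01 without ribosomal RNA, 0.03 with the span trend removed, 0.01 with edgeR without the 3 libraries), Cryab (0.03 with the span trend removed) and Bag3 (0.04, 0.05 and 0.00 with quantile normalization and both kinds of equal totals). These directions are against 0, while the median of all genes moved too: from −0.14 to 0.08 with equal totals and −0.01 with quantile normalization. The cause was not tested. All genes lower at an unadjusted p below 0.05, 2033 as reported, numbered 412 with equal totals and 366 with edgeR without the 3 libraries; those higher, 298, numbered 1208 and 726. DESeq2 called 18 genes, and edgeR without the 3 libraries called 3. With the replicate block 3 members were lower at an unadjusted p below 0.05, beside 1835 of all genes. Same-numbered libraries correlated between −0.33 and 0.327, with 4 of 6 pairs above 0.1, and 7 of 12 libraries correlated best with their own number. The numbers were not taken as pairs in the main fit, and whether same-numbered libraries share anything was not tested. The Cryab to Hspb2 difference was 0.26 to 0.32 with 1 library left out. It passed the adjusted threshold in 17 of 19 alternatives, most of which changed the pseudocount or left out 1 library. Other pseudocounts and recovered reads, which hardly alter a ratio within a library, gave 0.28 to 0.30. The difference did not pass with the span trend removed (0.17, exact permutation p = 0.0476, adjusted p = 0.0952). Nor did it without MI+TRD replicates 1, 4, 5 and 6 (0.23, adjusted exact permutation p = 0.0714), where the few libraries left allow no smaller p. Both of these settings were added after seeing the data. The Bag3 to Hspb8 difference of 0.00 ran from −0.05 to 0.04 with 1 library left out and was −0.07 with the span trend removed. The members had 228 reads or more in every library; whether depth limited these tests was not tested.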
